A study of Mus musculus with 4 samples.

Results

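Interleukin-6 (Il6), oncostatin M (Osm) and leukemia inhibitory factor (Lif), their receptor chains Il6ra, Lifr, Osmr and Il6st (gp130), the transcription factor Stat3 and its inhibitor Socs3 were measured on microarrays in cultured granulocytes that have or lack the microRNA miR-223. These 9 genes were taken by name, with every probe that carries the name and is not a control. The rule uses no measured value, but the set was chosen with earlier results of these arrays known. Of the 9 genes, 8 had probes under their name, out of 28510 genes on the array, with 15 probes in all. Lif had none. Of the 8, 7 passed the filter on dim signals and were tested among 16778 genes. Osmr did not pass it.

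The arrays compared wild type with miR-223 knockout cells, 2 samples each, all from male C57BL/6 mice. In both groups bone marrow was grown for 4 days in medium with GM-CSF at 40 ng/ml, a cytokine for granulocytes and macrophages, and growing, not yet mature granulocytes were then sorted. The labels give neither the knockout allele, the age of the mice nor the markers of the sort. Nor do they name separate mice or cultures for the replicates, so p-values measure only the spread between these samples, which may be technical. No probe used here measures miR-223 itself, so the knockout label was not checked against the arrays. The comparison asks which transcripts differ in such cells when miR-223 is absent.

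Interleukin-6 binds its own receptor chain, Il6ra, and the pair then engages the signalling chain gp130. Leukemia inhibitory factor uses gp130 together with Lifr, and oncostatin M uses it together with Osmr or, in some settings, Lifr. Paired gp130 chains activate Jak kinases, which phosphorylate Stat3. Stat3 enters the nucleus and induces Socs3, which binds gp130 and shuts the signal off. In the myeloid lineage Stat3 also acts below the receptor for G-CSF, and Socs3 limits that signal too. MicroRNAs such as miR-223 lower the output of messenger RNAs whose sequence pairs with the seed of the microRNA.

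The microRNA that the knockout removes is shown first, because its seed defines the sites that a direct target would carry. Both mature arms come from RefSeq (GRCm38.p6). They lie on the plus strand, the 3p arm at chrX:96242884-96242905 and the 5p arm at chrX:96242842-96242864, and capitals mark the seed, bases 2 to 8.
mmu-miR-223-3p: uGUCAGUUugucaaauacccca
mmu-miR-223-5p: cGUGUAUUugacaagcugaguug
The site that pairs with the 3p seed reads AACTGAC, and the one for the 5p seed AATACAC. Of all 41174 probes, 153 (0.372%) held the former and 144 (0.35%) the latter, read in the probe sequence as the array files give it. None of the 15 member probes held either. A probe covers only a short stretch of its transcript, so this says nothing of the rest of it.

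The member probes are 60 bases long. The first 30 bases are printed here, 5′ to 3′, for the 5 genes around which the results turn, to show what was measured.
Il6: atattctgttacctagccagatggtttctt
Osm: tgtcccctactaccactcaggacttcaagg
Il6st: atcttctcacagtaagcagtctagttatgg
Stat3: cactctgtgagctgataccccaggctggga
Socs3: ccttcgaggctgtctgaagatgcttgaaaa
The array files place these probes in build mm9, Il6 at chr5:30346362-30346421 (plus strand), Osm at chr11:4140146-4140205 (plus), Il6st at chr13:113296586-113296645 (plus), Stat3 at chr11:100749598-100749657 (minus) and Socs3 at chr11:117827480-117827539 (minus). No gene annotation of that build was used, so exon or UTR is not given.

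Levels are log2 intensities relative to the 75th percentile of each array, which is 0, and differences are knockout minus wild type with limma's moderated standard error (SE), n = 2 arrays per group. The share of probes well above background was 57.6% on wild-type array 2 and 62.2% to 63.5% on the other arrays. The dimmest probe so classed stood at a level of -5.39 on wild-type array 2, against -6.3 to -6.6 on the others. No spot was saturated. Levels of different genes come from different probes and are not compared. Differences in these sorted populations cannot tell fewer cells of one type from less RNA per cell.

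None of the 7 tested members passed limma's test with Benjamini-Hochberg adjustment over all genes at 0.05, where 0% of all genes passed (the smallest adjusted p of any gene was 0.0592). At an unadjusted p under 0.05 stood 5 members, Il6, Il6st, Lifr, Socs3 and Stat3, against 13.6% of all genes (2275). The knockout and wild-type levels did not overlap in the same 5 members (71.4% of 7), against 48.1% of all genes. Of these, 4 were lower in the knockout, the direction of 20.1% of all genes, and Stat3 was higher, the direction of 28% of all genes. The median difference of the 7 members was -0.55, and that of all tested genes 0.03. The members' median is the value of Osm, whose genotypes overlap. With 2 arrays against 2, an exact two-sided permutation test of 1 gene cannot give a p below 0.333.

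**Figure D1:**
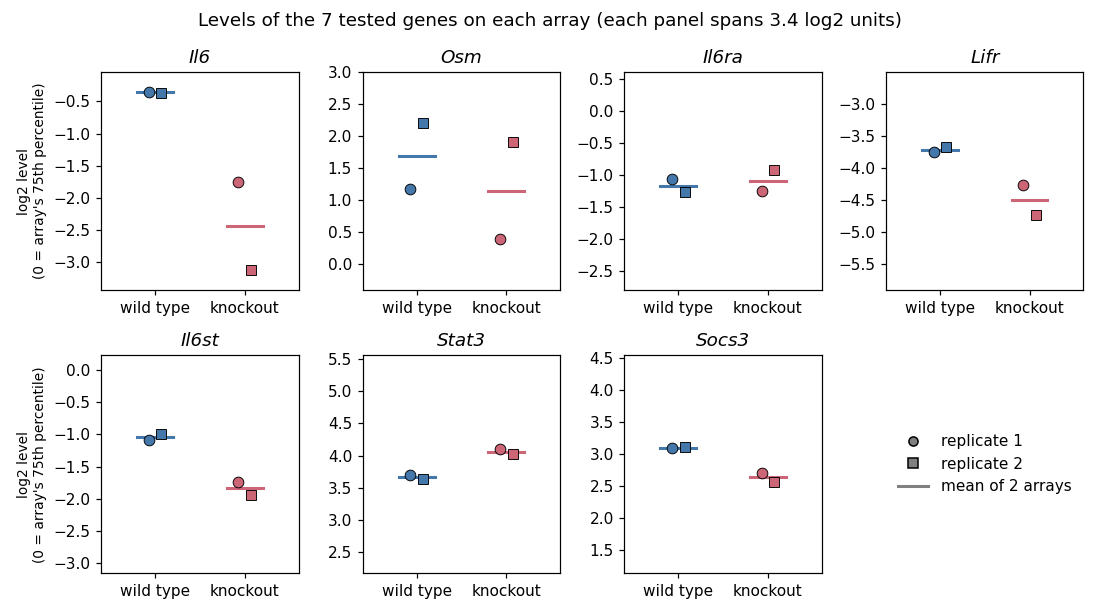
The log2 level of each tested member on each array (y axis, 0 is the array's 75th percentile), by genotype, with circles for replicate 1, squares for replicate 2 and bars for the mean of 2 arrays. Every panel spans the same number of log2 units: Il6, Lifr, Il6st and Socs3 sit lower in both knockout arrays, Stat3 sits higher in both, and Osm and Il6ra overlap.

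Among the ligands, Il6 had the widest difference of the 7 genes. Its processed intensity was 461 and 377 in wild type, against 152 and 56.3 in the knockout. As levels these are -0.35, -0.37, -1.76 and -3.13. The wild-type arrays lie within 0.02 of each other, both knockout arrays lie below them, and the knockout arrays lie 1.37 apart. Knockout array 1 was thus 2.64-fold and knockout array 2 was 6.84-fold below the wild-type mean. The mean difference was -2.09 ± 0.48 (limma, 95% interval -3.36 to -0.81), a 4.25-fold lower mean, with an unadjusted limma p of 0.00945 and an adjusted p of 0.263. The Il6 probe was printed at 10 spots per array, which gives the spread within an array. On wild-type array 1 the 10 spots ran from 430 to 499 and on wild-type array 2 from 342 to 425. On knockout array 1 they ran from 133 to 170 and on knockout array 2 from 48.9 to 61.8. These intensities are not scaled between arrays, and the spot ranges of the wild-type arrays do not overlap either, although their levels lie within 0.02. The SD over spots was 0.09 to 0.12 log2 units, which is technical spread within an array and not spread between samples.

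Oncostatin M, a ligand that myeloid cells release, was read by a pair of probes. At the brighter one the intensity was 1330 and 2240 in wild type and 672 and 1860 in the knockout, as levels 1.18, 2.21, 0.39 and 1.91. The genotypes overlap, and replicate 2 is the higher array within each. The difference was -0.55 ± 0.63 (limma, adjusted p = 0.737, 95% interval -2.23 to 1.14). Without knockout replicate 1 it was 0.22 and without wild type replicate 2 it was -0.03. Its direction thus depends on which array is left out. At the second probe (chr11:4139500-4139559) the levels were -0.38, 0.55, -1.03 and 0.34, with a difference of -0.44 ± 0.56 (limma, adjusted p = 0.772). Both probes give the same order of the 4 arrays: the wild-type arrays were 1.03 and 0.93 apart at the first and second probe, and the knockout arrays 1.53 and 1.37.

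For Lif itself no value is given, since no probe bears its name. Of the probes outside the rule, 1 belongs to a cDNA clone, AK019683, which the array annotation describes as leukemia inhibitory factor. It was well above background on all 4 arrays, at levels of -4.33 and -4.77 in wild type and -4.49 and -4.44 in the knockout. The knockout arrays lie between the wild-type arrays.

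Among the receptor chains, Il6st stood apart by genotype, as did some of the Lifr probes. Of the pair of Il6ra probes only the dimmer did. Il6st, which encodes gp130, had intensities of 275 and 244 in wild type and 154 and 128 in the knockout, as levels -1.09, -0.99, -1.74 and -1.94. Both knockout arrays lie below both wild-type arrays, and the gap is wider than the distance within either genotype. The difference was -0.80 ± 0.14, a 1.74-fold lower mean (limma, 95% interval -1.17 to -0.43), with an unadjusted limma p of 0.00333 and an adjusted p of 0.243. By unadjusted p it ranked 220 of the 16778 genes, ahead of Il6 at 601. Il6st has 1 probe with 1 spot, so neither a second probe nor repeated spots back this value.

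Il6ra, the chain that binds interleukin-6, had intensities of 279 and 202 in wild type and 216 and 259 in the knockout at its brighter probe (chr3:89680743-89680802, minus strand). The levels were -1.07, -1.26, -1.25 and -0.93, which overlap between genotypes. The difference was 0.08 ± 0.17 (limma, adjusted p = 0.877, 95% interval -0.39 to 0.54), an interval that includes a difference of the size measured for Stat3. At the second probe (chr3:89690491-89690550) the levels were -2.06 and -2.07 in wild type and -1.99 and -1.84 in the knockout. Those do not overlap, and the difference was 0.16 ± 0.13 (limma, adjusted p = 0.654).

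Lifr, the receptor chain for leukemia inhibitory factor, was dim and its probes disagreed. The brightest of 5 probes (chr15:7134761-7135567, plus strand, a span of 807 bases for 60 bases of probe) had intensities of 43.4 and 38 in wild type and 26.7 and 18.6 in the knockout. Its levels of -3.75, -3.68, -4.27 and -4.73 gave a difference of -0.78 ± 0.20, a 1.72-fold lower mean (limma, 95% interval -1.31 to -0.26, adjusted p = 0.279). Probe 4 (chr15:7141059-7141118) was also lower in both knockout arrays, at 14.6 and 13.3 against 8.1 and 8.1, with a difference of -0.70 ± 0.13 (limma over probes, adjusted p = 0.262). Its level of -5.19 on wild-type array 2 lies near the dimmest level classed as well above background there, -5.39. Probe 2 (chr15:7135674-7135733) was at 0.17 ± 0.25 and probe 3 (chr15:7141150-7141209) at -0.07 ± 0.17, and both overlap between genotypes (limma over probes, adjusted p = 0.798 and 0.893). Probe 3 and probe 4 lie side by side on the chromosome and still differ. Probe 5 failed the background criterion on all 4 arrays. With normexp background correction the Lifr difference was -0.05. The brightest probe was picked anew under that correction and may be another one. As the mean of the tested probes of Lifr, without that correction, the difference was -0.34. The normexp correction adds an offset of 50, which is above every Lifr intensity printed here. The lower level of Lifr thus holds for some of its probes, and its size varied with the processing.

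Osmr, a receptor chain for oncostatin M that also serves interleukin-31, failed the background criterion on all 4 arrays at both of its probes (chr15:6763686-6763745 and chr15:6765043-6765102, minus strand). Its intensities ran from 1.5 to 5.9. No difference is given for it.

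**Figure D2:**
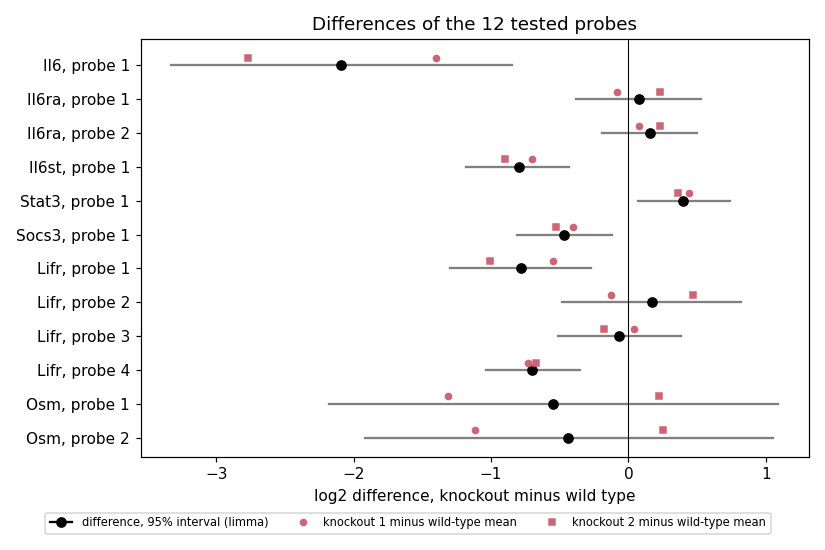
Knockout minus wild-type log2 differences (x axis) of the 12 tested member probes, with limma's 95% intervals as lines, and each knockout array minus the wild-type mean in red. Both red points lie on the same side of 0 for Il6, Il6st, Stat3, Socs3, the second Il6ra probe and Lifr probes 1 and 4, and on opposite sides for the other probes, both of Osm among them.

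Below the receptor, Stat3 and Socs3 differed in opposite directions. Stat3 had intensities of 7570 and 6010 in wild type and 8850 and 8010 in the knockout. Scaled to each array the levels were 3.69, 3.63, 4.10 and 4.02, so that both knockout arrays lie above both wild-type arrays. The difference was 0.40 ± 0.12, a 1.32-fold higher mean (limma, 95% interval 0.07 to 0.73), with an unadjusted limma p of 0.0265 and an adjusted p of 0.322. The Stat3 probe also had 10 spots per array, with an SD over spots of 0.03 to 0.08 log2 units. In unscaled intensity the spots ran from 6690 to 8010 and from 5840 to 6230 in wild type, and from 8240 to 9350 and from 7780 to 8240 in the knockout. The spots of knockout array 2 overlap those of wild-type array 1 in these units, and the array means separate by genotype before and after scaling.

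Socs3, the feedback inhibitor, had intensities of 5000 and 4200 in wild type and 3340 and 2930 in the knockout. The levels of 3.09, 3.11, 2.70 and 2.57 place both knockout arrays below both wild-type arrays. The difference was -0.47 ± 0.13, a 1.38-fold lower mean (limma, 95% interval -0.80 to -0.13), with an unadjusted limma p of 0.0174 and an adjusted p of 0.299. Like Il6st, Socs3 has 1 probe with 1 spot.

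Because Stat3 induces Socs3, the promoters of the members were searched for the core of a Stat site, TTCNNNGAA, in the window from 250 bases before to 50 after each RefSeq start (GRCm38.p6). The motif reads the same on both strands. Of 32851 promoters, 2726 (8.3%) held it. RefSeq's table had 9 promoters for 8 of the member genes, and Osm is not in it. Of the 9, 1 held the motif, that of Socs3, from 154 to 146 bases before the start. The bases around it (chr11:117969487-117969546, minus strand) are printed with the motif in capitals.
Socs3 promoter: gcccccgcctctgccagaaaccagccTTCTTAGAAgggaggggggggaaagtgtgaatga
A match is a run of letters and not evidence of binding, and the other promoters may hold such sites outside the window.

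The pathway around the members was described by lists, and 0 genes of each passed limma's test over all genes. Of 12 other ligands and receptors of the gp130 family, 10 were tested and Ctf1 and Il31ra were not. In 3 the knockout arrays were lower without overlap and in 5 higher, beside 20.1% and 28% of all genes. The median difference was 0.22, and 2 had an unadjusted limma p under 0.05, beside 13.6% of all genes. The lower ones were Il27ra, a receptor chain for interleukin-27, at -0.64 ± 0.13, Clcf1, a ligand that signals through gp130 and Lifr, at -0.65 ± 0.16, and Il11ra1, the receptor chain for interleukin-11, at -0.46 ± 0.19 (limma, adjusted p = 0.251, 0.276 and 0.397). Higher were Ebi3, a subunit of interleukin-27, at 0.44 ± 0.16 and Il12rb2, a receptor chain related to gp130, at 0.41 ± 0.15 (limma, adjusted p = 0.371 for both).

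All 18 kinases, phosphatases, sheddases and inhibitors of the pathway were tested. In 9 the genotypes did not overlap, beside 48.1% of all genes. Of these, 8 were higher and 1 was lower, the directions of 28% and 20.1% of all genes. None had an unadjusted limma p under 0.05, beside 13.6% of all genes. Differences ran from -0.24 to 0.55 with a median of 0.11. Cish, an inhibitor of the Socs family, was at 0.33 ± 0.13 and Pias3, an inhibitor of Stat3, at 0.27 ± 0.14 (limma, adjusted p = 0.383 and 0.46). Jak1, the main kinase on gp130, was at 0.26 ± 0.16, and Socs1, whose genotypes overlap, at 0.55 ± 0.47 (limma, adjusted p = 0.543 and 0.642).

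Among 25 genes reported as induced by Stat3 in one cell type or another, 23 were tested, with Il10 and Birc5 left out. The median difference was -0.01. In 10 of the 23 the genotypes did not overlap, and 4 had an unadjusted limma p under 0.05. Both shares are near those of all genes, 48.1% and 13.6%, so the genes named here are single values and not a result of the list. Of the 10, 7 were higher and 3 lower, the directions of 28% and 20.1% of all genes. Higher were the acute-phase genes Saa3 at 0.90 ± 0.18 and Hp at 0.64 ± 0.16, and Lcn2, which encodes an iron-carrier-binding granule protein, at 0.81 ± 0.24 (limma, adjusted p = 0.256, 0.278 and 0.313). Il1rn, the interleukin-1 receptor antagonist, was at 0.83 ± 0.40, and Ccnd1, cyclin D1, was lower at -0.97 ± 0.21 (limma, adjusted p = 0.445 and 0.261). Differences over the list ran from -1.6 to 0.9.

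**Figure D3:**
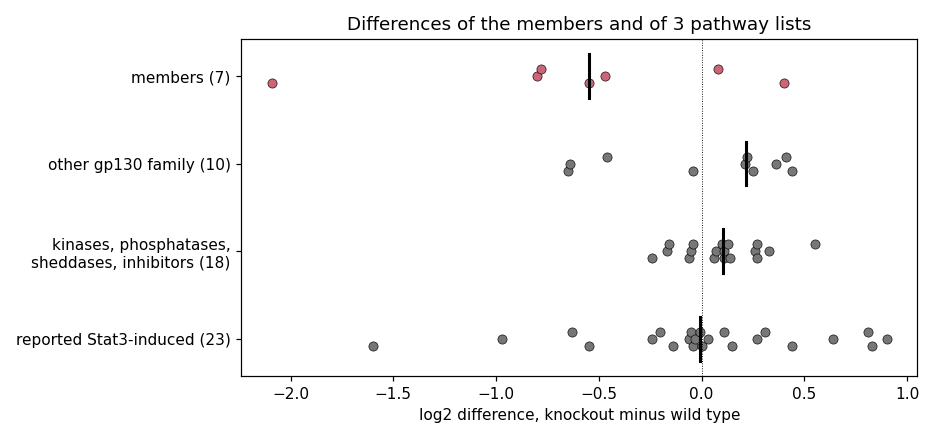
Knockout minus wild-type log2 differences (x axis) of the 7 tested members and of 3 lists of related genes, 1 point per gene, with black bars at the medians. The members have a median of -0.55, which is the value of Osm, and the lists have medians of 0.22, 0.11 and -0.01. Points are set apart vertically only for legibility.

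Markers of other cells that the sorted population could hold were read beside Il6 and Il6st, which many cell types express. Of 13 mast cell and basophil markers, 9 were tested, and 8 of the 9 were lower in both knockout arrays, beside 20.1% of all genes. An unadjusted limma p under 0.05 was found for 2 of the 9, beside 13.6% of all genes. The median difference was -1.35, and the markers lay at a median of -0.51 on knockout array 1 and -2.16 on knockout array 2, the order of the knockout arrays that Il6 shows. Macrophage and monocyte markers, at -0.65 and -1.41, and dendritic cell markers, at -0.35 and -0.64, had the same order. Markers of stroma and fibroblasts, at 0.19 and 0.26, did not. The summed level of the tested markers, as multiples of the 75th percentile, is led by the brightest probes and is compared only between arrays within a list. For the mast cell and basophil markers it was 64.3 and 72.1 in wild type and 46.1 and 24.4 in the knockout. The mast cell proteases Mcpt4, Tpsb2, Tpsab1 and Cma1 did not pass the background filter, the basophil proteases Mcpt8 and Prss34 did, and Kit, at 0.03 ± 0.21, overlapped. The part of these cells in the Il6 difference was not tested.

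All 13 macrophage and monocyte markers were tested. Of these, 10 were lower in both knockout arrays (beside 20.1% of all genes) and 1 was higher (beside 28%), with a median of -1.11. On knockout array 1 the median was -0.65 and on knockout array 2 it was -1.41, beside -0.70 and -0.90 for Il6st. An unadjusted limma p under 0.05 was found for 8 of the 13, the 1 higher marker among them, beside 13.6% of all genes. The summed level of the 13 was 38.3 and 47.7 in wild type and 34.6 and 37.1 in the knockout, and Csf1r and Cd68 overlapped between genotypes. Of 8 dendritic cell markers 6 were lower and 1 was higher, beside 20.1% and 28% of all genes, with a median of -0.49. Of the 8, 4 had an unadjusted limma p under 0.05. Their summed levels were 155 and 167 against 160 and 109. The part of these cells in the Il6st difference was not tested.

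Of 8 markers of stroma and fibroblasts, common sources of interleukin-6, 3 were tested, and Col3a1, Pdgfra, Cxcl12, Lepr and Dcn did not pass the background filter. Their summed level was 0.327 and 0.644 in wild type and 0.48 and 0.546 in the knockout. Of 5 endothelial markers 2 were tested, with sums of 0.0766 to 0.118. The T cell sums were 0.0452 to 0.103 and the B cell sums 0.0538 to 0.226. The labels call the cells bone marrow cells and the sorted ones immature granulocytes, and the 11 immature granulocyte markers with a probe under their name were all well above background, at summed levels of 3660 and 3810 in wild type and 3890 and 4260 in the knockout. Their median difference was 0.14. Without overlap 3 were higher and 1 was lower, beside 28% and 20.1% of all genes.

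**Figure D4:**
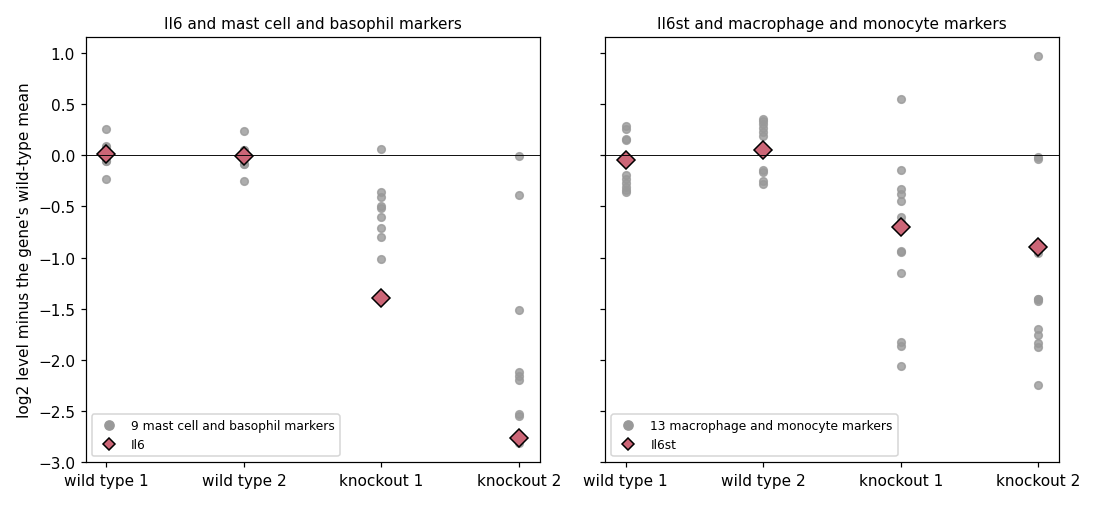
Log2 level minus the wild-type mean of the same gene (y axis) on each array, for Il6 with 9 mast cell and basophil markers (left) and Il6st with 13 macrophage and monocyte markers (right). Grey points are markers and red diamonds the member. Il6 lies below all 9 markers on knockout array 1 (-1.40) and near their lower end on knockout array 2 (-2.77), and Il6st (-0.90) lies within the range of its markers on both knockout arrays.

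The genes whose 4 array values most resembled those of Il6, Il6st and Stat3 were found by the root mean square difference of their levels after subtracting each gene's own mean, over 4 arrays and 12172 candidate genes. For Il6 the nearest was Gata2, a transcription factor of mast cells and basophils, with levels of 0.99, 0.98, -0.03 and -1.83 and a distance of 0.173 log2 units, followed by Whrn (0.194) and Akr1c18 (0.218). All of them share with Il6 a pair of close wild-type arrays and a lowest knockout array 2. For Il6st they were Trpv4 (0.024), Ccr2 (0.026), a chemokine receptor of monocytes, and Met (0.03), the receptor for hepatocyte growth factor. For Stat3 they were Gpd1l (0.003), Wdfy4 (0.017) and Cdk17 (0.018). Over 4 arrays many genes can have such a pattern, and likeness is given as a description.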

How the data were processed

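Arrays of 4 samples (design 014868, 1 slide, Cy3) were analysed. The processed intensity per spot was made by the authors with Agilent Feature Extraction 10.5.1.1, per the file headers, with background and spatial trends removed and no normalization between arrays. The authors' deposited log2 values matched log2 processed intensity plus a constant per array for 99.8% of probes within 0.01 and served as an alternative. How they were made is not given in the sources used here.

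Control spots and outlier-flagged spots were left out (5, 16, 3 and 0 probes lost all spots on an array). Replicate spots were averaged per probe on the log2 scale, and the array's 75th percentile over 41174 probes (intensities of 586, 486, 514 and 493) was subtracted. RefSeq symbols (GRCm38.p6) named 26888 probes by systematic name and 113 by another accession, and 14173 kept the array's name. Coordinates are the array files' (mm9) or, for RefSeq sequences, GRCm38.p6. For each gene the brightest probe by its mean over the arrays was used, and it was tested if either genotype had it well above background on both arrays. Limma (lmFit, eBayes, two-sided) with Benjamini-Hochberg adjustment at 0.05 was fitted over 16778 genes and, separately, 25055 probes, and checked on simulated data. The median SE over genes was 0.157, and precision is limited by how few arrays there are.

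The members and lists were chosen with earlier results of these data known. All members and the 5 genes of each pathway list with the smallest p were named, with 3 most similar genes each for Il6, Il6st and Stat3, and cell markers as lists. One gene that this rule names is not reported here. Scaling, background correction, filter, probe choice, replicate block, intensity trend and leaving out each array were varied. The data.table package (1.17.8), limma 3.58.1 and jsonlite 2.0.0 ran under R 4.3.3.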

Additional observations from a re-analysis of the deposited data

How the results depend on the processing

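No member passed limma's test with Benjamini-Hochberg adjustment under any of 14 alternatives. Over all genes the count was 0 in each, except 4 with spike-in scaling (all lower) and 5 with normexp background correction. Unadjusted counts ran from 1078 to 2873. The directions of Il6, Il6st, Stat3, Socs3 and Lifr were kept in 14 of 14. For Lifr this includes -0.05 ± 0.19 with normexp background correction, a difference smaller than its SE. Over the alternatives Il6 ran from -2.77 to -1.40 (limma adjusted p from 0.128 to 0.689), Il6st from -0.90 to -0.62, Stat3 from 0.31 to 0.44, Socs3 from -0.56 to -0.40, Lifr from -1.01 to -0.05, Il6ra from -0.08 to 0.23 and Osm from -1.31 to 0.22. Il6ra reversed to -0.02 with spike-in scaling, -0.02 without wild type replicate 2 and -0.08 without knockout replicate 2, and Osm to 0.22 without knockout replicate 1. With the replicate number as a block, calls over genes stayed at 0 and those over all probes went from 3 to 0, with no member among them. Deviations of same-numbered arrays correlated at 0.174 across 16778 genes. With 2 pairs the numbers only name samples, and the block gave Osm -0.55 at a limma adjusted p of 0.337. The causes were not tested. Signal over background limits Lifr and Osmr most.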

Other observations

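Some genes of the list reported as induced by Stat3 ordered the 4 arrays as Osm did. They were singled out after their values were seen. Fos, an immediate-early gene, had levels of 3.25 and 4.16 in wild type and 0.19 and 4.01 in the knockout, Zfp36 3.13 and 4.54 against 2.32 and 4.08, and Junb 5.28 and 5.82 against 4.53 and 5.48. In each of them and in Osm, knockout array 1 was the lowest and wild-type array 2 the highest, and the genotypes overlapped.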
